A study of Mus musculus with 4 samples.

Results

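RNA of kidney cortex nuclei from a library labelled as carrying an endothelial Klf4 deletion was set against RNA of a control library, cluster by cluster, in the nephron and its neighbours. The series holds 4 mouse libraries on C57BL/6J, with 1 library a genotype, prepared from frozen kidney cortex on a droplet system that counts RNA molecules by unique molecular identifiers (UMIs). The control is Klf4 flox/flox, in which the Klf4 alleles are marked for deletion but intact. The library called Klf4 dEC is labelled Klf4deltaEC, a deletion of Klf4 in endothelial cells. The remaining libraries are labelled Nos3-/-, a loss of the endothelial nitric oxide synthase gene (called Nos3 null), and Klf4deltaECNos3-/-, which names both changes (called Klf4 dEC Nos3 null, and "both labels" in brackets). By its title the series asks what less Klf4 in endothelium does, with Nos3 present and without it. The Cre driver, the age of the mice and the number of mice in a library were not stated in the labels. Clusters 0 to 19 other than the endothelial cluster 10 were described, which is 19 clusters. A gene entered in a cluster where it reached 0.5 UMIs per 10000 in either library, and 7699 of 21046 genes did so in at least 1 cluster. The ratio is log2 of (Klf4 dEC + 0.1) over (control + 0.1), and a gene was counted as higher or lower at a log2 ratio of 1 or more, or of -1 or less. With 1 library a side no test exists, and every difference below is one between 2 libraries.

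The nephron is a chain of epithelial segments. The proximal tubule takes back most filtered solute, the thick ascending limb takes up salt without water, and the distal convoluted tubule, connecting tubule and collecting duct set the final salt, calcium, acid and water content of urine. Klf4 is a zinc-finger transcription factor that keeps vascular endothelium quiet and resistant to inflammation, and it is also an early-response gene in many other cells. Because the labelled deletion lies in endothelial cells, a tubule cell in these mice would keep its Klf4 alleles.

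The targeted genes were read first. Over all nuclei of the 19 clusters, Klf4 stood at 0.0171 per 10000 in the control and 0.0534 in Klf4 dEC (Nos3 null 0.0254, both labels 0.0187). It entered in cluster 13 alone, with 0.213 in the control and 0.965 in Klf4 dEC. In the endothelial cluster Klf4 was 0.621 in the control and 0.779 in Klf4 dEC, so the deletion named in the label is not seen in the level of Klf4, and the label is used here as a name. Nos3 in the endothelial cluster was 1.26 in the control, and the library labelled Nos3-/- had 1.52, so that label is a name here too. The sources used here do not say whether the counted reads of either gene lie inside its deleted part.

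The numbers of nuclei, inferred from the table, were 6357 in the control and 6450 in Klf4 dEC, beside 6605 in Nos3 null and 5162 with both labels. Classes were rebuilt from marker genes. Clusters 0, 1, 3, 5 and 6 are proximal tubule-like, 2, 4 and 19 thick ascending limb-like, 8 principal cell-like, 9 distal convoluted tubule-like, 11 connecting tubule-like, 14 and 16 intercalated cell-like and 18 thin limb-like. Cluster 13 is fibroblast and mural cell-like and cluster 15 podocyte-like, so neither is tubule. Clusters 7, 12 and 17 stayed unnamed. The names of clusters 1, 13 and 19 rest on the mean level of their markers, since 0 of the 10 leading genes of each is a marker of its class. In cluster 13 the endothelial markers had a greater sum than its own markers, 18.1 against 9.44 in the control. All clusters of a library share 1 preparation and its free RNA, so clusters are not replicates, and nuclear barcodes shared between libraries were not analysed here. Since values are averages across the nuclei in a cluster, fewer nuclei of a kind and less RNA in each nucleus cannot be told apart.

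Most pairs of a gene and a cluster stayed inside the size limit. Of 75804 pairs of a gene and a cluster, 1699 were higher in Klf4 dEC (2.24%) and 1478 were lower (1.95%). These pairs come from 2357 of the 7699 genes, of which 1858 were counted in 1 cluster only and 103 in opposite directions in different clusters. The share of genes past the limit was greatest in the clusters with least RNA. In cluster 12, where the inferred median was 782 UMIs a nucleus in the control and 779 in Klf4 dEC, 8.17% of genes were higher and 8.89% lower. In the proximal clusters, which held between 1790320 and 4073850 effective UMIs in the shallower library, at most 1% were higher and 0.639% lower. In the proximal clusters, in the order 0, 1, 3, 5 and 6, the share higher was 0.725%, 1%, 0.357%, 0.364% and 0.672%, and the share lower 0.613%, 0.639%, 0.302%, 0.364% and 0.56%. Of the thick limb-like clusters, cluster 2 had 2.19% higher and 2.11% lower, cluster 4 0.99% and 0.254%, and cluster 19 4.68% and 5.34%. The intercalated cell-like clusters 14 and 16 had 2.36% and 3.13% higher, and 0.53% and 2.21% lower. Over the 19 clusters the share past the limit and the effective UMI total had a Spearman rho of -0.66, given as a description. Cluster 8, the principal cell-like cluster, had 3.22% higher and 2.03% lower, and of the clusters nearest to it in depth cluster 9 had 0.594% and 0.129% and cluster 2 2.19% and 2.11%.

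**Figure D1:**
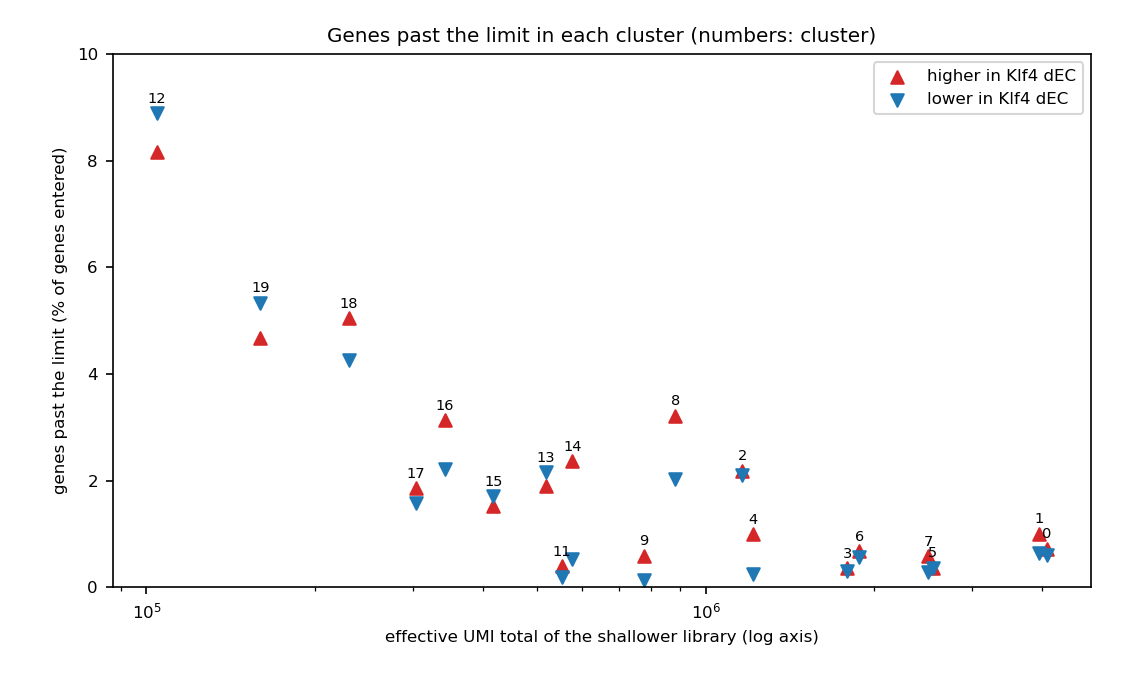
Share of genes past the limit in each cluster (y axis, percent of the genes entered) against the effective UMI total of the shallower of both libraries (x axis, log scale). Red triangles are genes higher in Klf4 dEC and blue triangles genes lower, and the numbers name clusters. Cluster 12 has the highest shares, 8.17% and 8.89%, at the lowest depth, and cluster 8 reaches 3.22% higher.

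Among 4628 genes that entered in at least 6 clusters, 13 were higher in at least 6 clusters and lower in none (0.281%), and 7 were lower in at least 6 and higher in none (0.151%). The higher genes included Gm15261, 2310040G07Rik, 9330175M20Rik, Gm47283, Gm16599, Cox7c, Ranbp3l, Gm15962, Aacs, Lrrc4, March1 and Gclc. The lower genes were Zbtb16, C330002G04Rik, Adamts6, Sgcz, Gm16867, Loxl2 and Ephb2. Bcl6, a transcriptional repressor gene named after its values were seen, was lower in 9 clusters but higher in intercalated cluster 16, with a log2 ratio of 1.07 there. The shared genes hold 5 antisense RNAs, 1 long intergenic RNA, 1 respiratory chain subunit, 2 enzymes of cytosolic metabolism, an ephrin receptor and a synaptic adhesion protein.

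**Figure D2:**
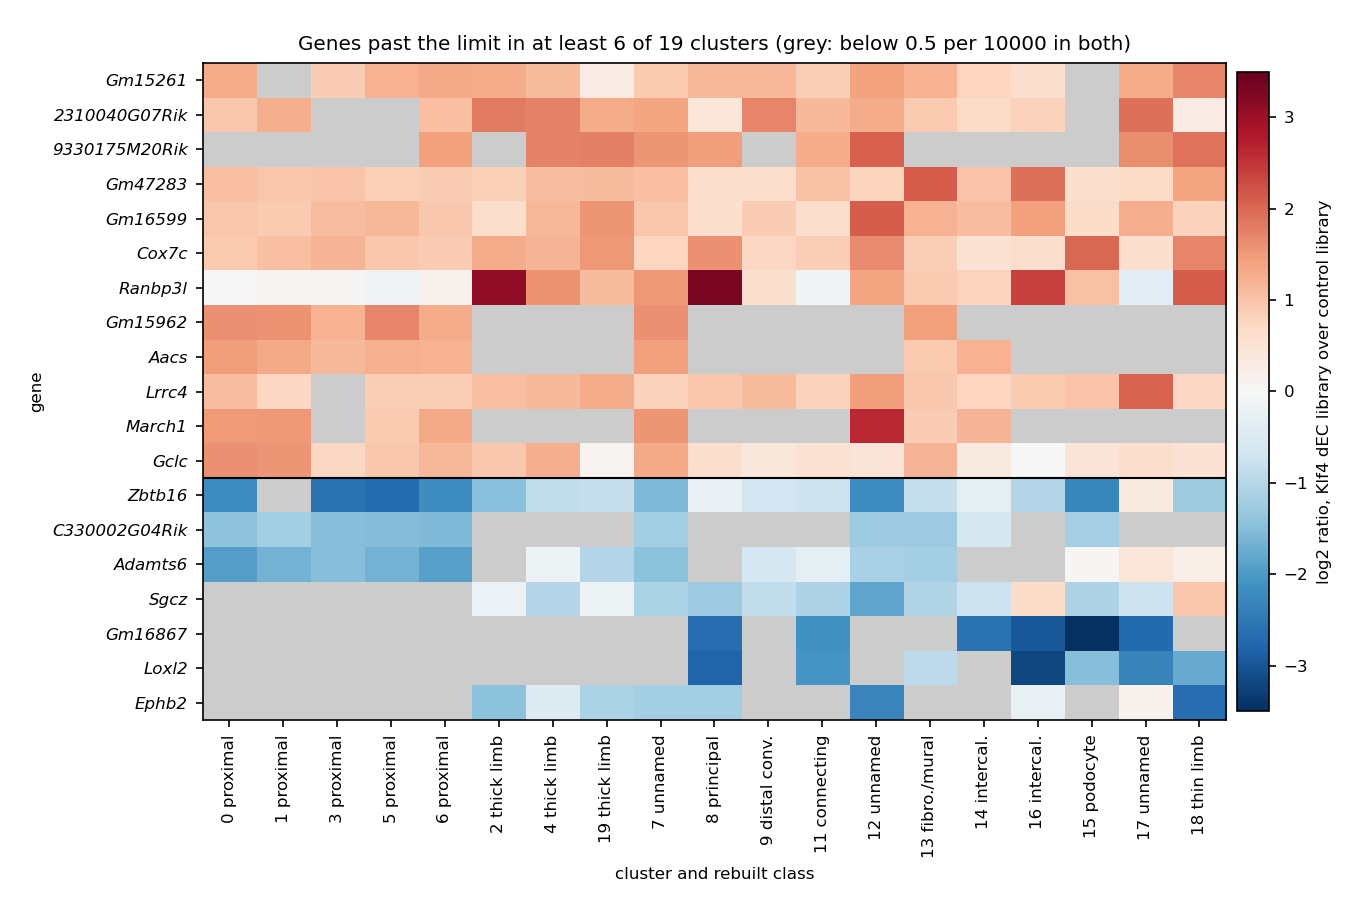
Log2 ratio of Klf4 dEC over control (colour scale) for 19 of the shared genes (rows, with 12 higher genes above the line and the 7 lower genes below it) in 19 clusters (columns, grouped by rebuilt class). Grey marks a gene below 0.5 per 10000 in both libraries. Ranbp3l is near 0 in the 5 proximal clusters and 3.31 in cluster 8, while Zbtb16 runs from -2.68 in cluster 5 to 0.33 in cluster 17.

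Cox7c encodes a small subunit of cytochrome c oxidase, the last complex of the respiratory chain. Over the 19 clusters its level ran from 0.272 through a median of 0.466 to 1.19 per 10000 in the control, and from 0.789 through 1.10 to 3.96 in Klf4 dEC. Each cluster had the higher value in Klf4 dEC, and 9 of 19 passed the limit. The median log2 ratio over clusters was 0.93, from 0.50 in cluster 14 to 2.00 in the podocyte-like cluster 15. Over all nuclei Cox7c was 0.481 (95% counting interval 0.454 to 0.511) in the control and 1.14 (1.10 to 1.19) in Klf4 dEC. It had lower values in Nos3 null, 0.252, than in Klf4 dEC Nos3 null, 0.6997, so it was higher in both libraries with the Klf4 label than in their counterparts.

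Gclc encodes the catalytic subunit of glutamate-cysteine ligase, the rate-limiting enzyme of glutathione synthesis. In proximal tubule-like nuclei it was 2.69 in the control and 7.17 in Klf4 dEC, a log2 ratio of 1.38 (1.36 to 1.47). The ratio was 1.14 in thick limb-like nuclei, 1.19 in cluster 13 and 1.32 in cluster 7, and these with the proximal class were the classes past the limit. In connecting tubule-like nuclei, where Gclc was 6.89 in the control, the ratio was 0.53, and in intercalated cell-like nuclei, where it was 8.57, the ratio was 0.21. Klf4 dEC stood apart from the other libraries over all nuclei, with 5.98 against 2.72 in the control (Nos3 null 3.41, both labels 3.44). Gclm, which encodes the modifier subunit of the same enzyme, had a log2 ratio of 0.17 in the proximal class.

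Ranbp3l, which encodes a nuclear export factor that binds the GTPase Ran, had the widest range of ratios between classes. In thick limb-like nuclei it was 4.78 in the control and 32.3 in Klf4 dEC (Nos3 null 4.07, both labels 6.80). In principal cell-like nuclei it was 4.30 and 43.6 (Nos3 null 2.66, both labels 9.23). The log2 ratios of Klf4 dEC to control were 2.73 (2.69 to 2.83) and 3.31 (3.19 to 3.498). Klf4 dEC was by far the highest library in both classes. The log2 ratios of both labels to Nos3 null were smaller but also above 0. They were 0.73 (0.62 to 0.86) in thick limb-like and 1.76 (1.46 to 2.17) in principal cell-like nuclei. Within the thick limb-like class, Ranbp3l was 6.92 in the control and 59.8 in Klf4 dEC in cluster 2. It was 2.02 and 6.26 in cluster 4, and 1.98 and 4.38 in cluster 19. Thin limb-like nuclei had 8.89 and 39.2 (Nos3 null 2.29, both labels 9.23), and intercalated cell-like nuclei 1.45 and 5.90 (Nos3 null 1.11, both labels 1.20). The ratios of both labels to Nos3 null were 1.96 (1.45 to 2.63) and 0.10 there. In proximal tubule-like nuclei Ranbp3l was 2.23 in the control and 2.27 in Klf4 dEC, and in connecting tubule-like nuclei 0.985 and 0.906, so the ratios of these classes were near 0. Their ratios of both labels to Nos3 null were -0.37 and -0.43. Nadk2, a mitochondrial NAD kinase gene that starts 3.925 kb beyond the end of Ranbp3l on the same strand of chromosome 15, had ratios of 1.80 in thick limb-like and 2.02 in principal cell-like nuclei and 0.12 in proximal ones. Reads that run on from 1 gene into the next could not be told from reads of the next gene here.

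Aacs encodes acetoacetyl-CoA synthetase, which turns a ketone body into a precursor of cholesterol and fatty acids. Aacs was 0.743 in the control and 1.99 in Klf4 dEC in proximal tubule-like nuclei, a log2 ratio of 1.31 (1.32 to 1.52 on counts without the pseudocount). March1 encodes a membrane ubiquitin ligase that removes MHC class II from the cell surface. Its level over the clusters ran from 0.0159 through 0.0695 to 1.15 in the control and from 0 through 0.186 to 3.38 in Klf4 dEC, with the highest value of both in proximal cluster 0. Lrrc4, a synaptic adhesion protein gene, had a smaller but even difference, with a median ratio of 0.94 over 18 clusters and 7 past the limit.

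Some genes counted as shared followed the proximal tubule. In clusters outside the proximal class, the level of a gene was set as a percentage of its proximal level, beside the same percentage for the summed level of 14 proximal tubule markers. The markers stood at 66.7% in cluster 7, 60.6% in cluster 12 and 45.8% in cluster 13 of the control, and at 68.3%, 75.5% and 41.9% of Klf4 dEC. In clusters 2, 4, 8, 9, 11, 16, 17 and 19 they were between 5.72% and 8.89% in both libraries. C330002G04Rik stood at 59.96% in cluster 7 and 39.2% in cluster 13 of the control, and at 67.1% and 40.6% of Klf4 dEC. Gm15962 stood at 63.0% and 34.0% of the control and 72.2% and 39.0% of Klf4 dEC, and Aacs at 67.5% and 56.4%, then 77.0% and 43.9%. In cluster 12 the 3 genes lay below the marker percentage, with 25.3% and 25.2% for C330002G04Rik, 20.6% and 25.4% for Gm15962 and 39.4% and 21.9% for Aacs, in the control and Klf4 dEC. In clusters 7 and 13 they lay nearer to it, and the clusters that counted Gm15962 were the 5 proximal ones, 7 and 13. March1 was at 78.4% and 70.6% in the control. Cox7c, with 67.8% in cluster 8, and Gm16599, with 71.9% in cluster 2, stood far above the marker percentage in clusters where the markers were low. The part of free or doublet-borne proximal RNA in these ratios was not tested.

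The 5 antisense RNAs overlap protein-coding genes on the other strand, and the sources used here do not say whether counting used strand. Gm15261 lies on the minus strand of chromosome X, 169037674 to 169106536, inside Arhgap6. Over all nuclei Gm15261 was 0.614 in the control and 1.38 in Klf4 dEC, while Arhgap6 was 5.59 and 5.33. 2310040G07Rik, on chromosome 5 from 76928368 to 76947758, overlaps Ppat, an enzyme of purine synthesis. 2310040G07Rik was 0.438 in the control and 1.14 in Klf4 dEC, and Ppat was 0.632 and 0.753. Gm16599, on chromosome 5 from 136274996 to 136417894, lies inside Cux1 and was 0.939 against 1.97, with Cux1 at 6.07 against 7.34. In these 3 pairs the RNA on 1 strand differed by about the size limit and the overlapping gene by less. For the fourth pair, Gm15962 and Keg1 on chromosome 19, both were higher in Klf4 dEC, Gm15962 with 0.243 against 0.857 and Keg1, a proximal marker, with 8.86 against 16.9, and their reads could not be told apart. The last, 9330175M20Rik, overlaps Cavin2 on chromosome 1, and was 0.141 against 0.476. Gm47283 lies on chromosome Y from 90784738 to 90816464 in the annotation and was 0.439 against 0.947, beside 1.23 in Nos3 null and 1.92 with both labels.

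Among the lower genes, Zbtb16 was counted in most clusters, 10 of the 18 it entered. Zbtb16 encodes a zinc-finger transcription factor that glucocorticoids induce in many tissues. In proximal tubule-like nuclei it was 1.46 in the control and 0.207 in Klf4 dEC (Nos3 null 0.114, both labels 0.541). In podocyte-like nuclei it was 3.72 and 0.686 (Nos3 null 0.253, both labels 0.276). The control was the high library and the other 3 were low. The log2 ratio of Klf4 dEC to control was -2.34 (-3.00 to -2.64 on counts) in the proximal class, -2.28 in podocyte-like, -1.24 in thin limb-like and -1.15 in thick limb-like nuclei. In principal cell-like nuclei it was -0.23, with 1.79 against 1.52, and the counting interval there held 0.

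Adamts6, a secreted metalloprotease gene, was lower mostly in the proximal class, with 2.25 in the control and 0.629 in Klf4 dEC, a log2 ratio of -1.69. In podocyte-like nuclei it was 1.45 and 1.49. The long intergenic RNA C330002G04Rik was 4.13 and 1.49 in proximal tubule-like nuclei. Its locus on the minus strand of chromosome 19, 22978230 to 23075924, overlaps the end of Trpm3, which was 0.857 and 0.935 over all nuclei. Sgcz, a sarcoglycan gene, had its highest level in thick limb cluster 2 in every library, 58.0 in the control and 49.96 in Klf4 dEC, a log2 ratio of -0.22 there. It was past the limit in 7 clusters where it was lower, and 0.96 in thin limb-like cluster 18. Ephb2, an ephrin receptor kinase gene, was 7.24 in the control and 3.55 in Klf4 dEC in thick limb-like nuclei and 2.49 and 0.305 in thin limb-like nuclei. Its ratio was -0.27 in intercalated cluster 16 and 0.13 in cluster 17.

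Gm16867 and Loxl2 stood apart from the other lower genes because Klf4 dEC was close to 0 for both. They are neighbours on chromosome 14, Gm16867 on the minus strand (69363504 to 69503362) and Loxl2, a collagen-crosslinking lysyl oxidase gene, on the plus strand (69609068 to 69695834), 105.706 kb apart. Over all nuclei Gm16867 had 860 effective counts in the control and 8 in Klf4 dEC, a level of 0.373 against 0.00399 and 93.4-fold lower (47.6 to 219, counting interval). Gm16867 was 0.543 in Nos3 null and 0.178 with both labels. Loxl2 was 0.434 in the control and 0.0533 in Klf4 dEC, 8.14-fold lower (6.67 to 10.0), beside 0.237 in Nos3 null and 0.242 with both labels. Klf4 dEC was the lowest of the 4 libraries for both genes. Loxl2 was at 0 in 9 of 19 clusters of Klf4 dEC, and in proximal cluster 0 it was at least 54.5-fold lower, set against 3 counts in that cluster. In podocyte-like nuclei, where its level was highest, Loxl2 kept 0.838 in Klf4 dEC against 2.56 in the control. Slc25a37, 78.392 kb from Gm16867 on the far side from Loxl2, was 0.274 in the control and 0.305 in Klf4 dEC.

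The same label difference occurs a second time in the series, in Klf4 dEC Nos3 null over Nos3 null, and that pair shares no library with the first. The median log2 ratio over clusters in the second pair had the same sign for 10 of the 13 higher genes, where 51.9% of 4457 genes were above 0, and for 5 of the 7 lower genes, where 48.1% were below 0. It was past the limit in the same direction for 7 of the higher genes, Gm15261, 2310040G07Rik, Gm16599, Cox7c, Gm15962, Lrrc4 and March1, where 2.87% of the 4457 genes that entered in at least 6 clusters of both pairs reached 1. Gm15962 and 9330175M20Rik entered in 1 cluster of the second pair, Loxl2 in 2, and Aacs and March1 in 5. These genes lie outside that base, for the counts of signs as well. Gm16867 was the lower gene past the limit, with a median of -1.36, where 2.4% of those 4457 genes reached -1. In the opposite direction, 2 of the higher genes and 0 of the lower genes were past the limit. Of the 13 higher genes, 1 was lower past the limit in at least 6 clusters of the second pair. Over all nuclei instead of the median over clusters, the second pair was below 0 for 2 of the 7 lower genes, C330002G04Rik and Gm16867. The log2 ratio of that pair was 0.08 for Zbtb16, 0.95 for Sgcz, 0.02 for Loxl2, 0.30 for Ephb2 and 0.76 for Adamts6. Levels over all nuclei also depend on the share of nuclei in each cluster. Cluster 2 held 459 of 6605 nuclei in Nos3 null and 753 of 5162 with both labels. Ephb2 was below 0 in 8 of its 9 second-pair clusters. In cluster 2 it was 7.28 in Nos3 null and 6.02 with both labels. Sgcz was below 0 in 13 of 19 clusters, but higher with both labels in cluster 2. The part of cluster shares in these ratios was not tested. For Gm15261, 2310040G07Rik, Gm16599, Cox7c, Gm15962, Lrrc4 and March1 the order of the libraries over all nuclei was the same: Klf4 dEC highest and Nos3 null lowest. Gm16599 was 0.939 in the control and 1.97 in Klf4 dEC (Nos3 null 0.373, both labels 0.898), so the control and the library with both labels lay close together. Shares past the limit were larger in the second pair, where 6.54% of gene and cluster pairs were higher and 6.15% lower. Nos3 null was also the shallowest library. Its median of UMIs per nucleus, taken from cluster medians weighted by nuclei, was 2419. That median was 4095.5 in the control, 4255.5 in Klf4 dEC and 4357 with both labels. The part of this depth difference in the second pair was not tested.

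**Figure D3:**
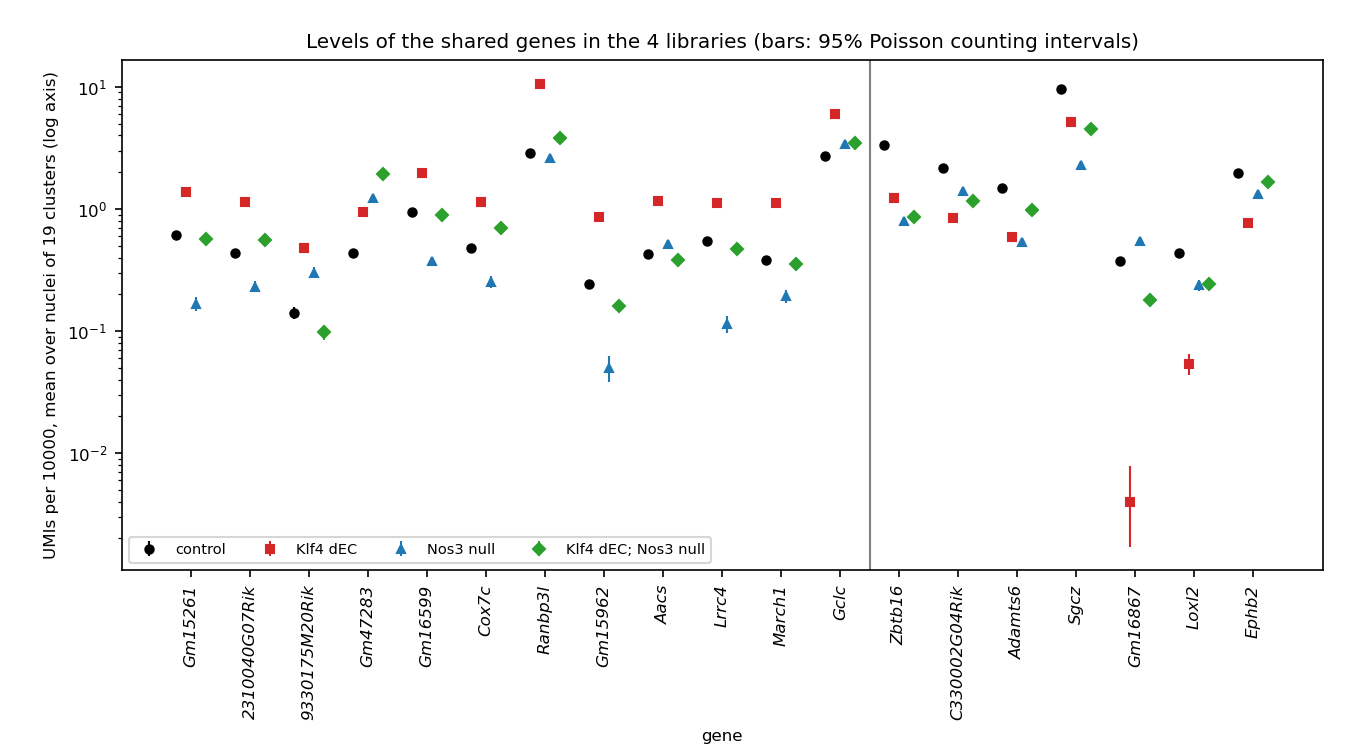
Mean level over all nuclei of 19 clusters (y axis, UMIs per 10000, log scale) of 19 of the shared genes (x axis, higher genes left of the line, lower genes right) in the 4 libraries, with 95% Poisson counting intervals as bars. Gm16867 in Klf4 dEC, at 0.00399, lies far below the other 3 libraries, and Ranbp3l in Klf4 dEC, at 10.6, lies above them.

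Promoters are shown for Ranbp3l, the gene with the widest range of ratios between classes, and for C330002G04Rik, the single shared gene whose window held a motif searched. The windows run from 250 bases before to 50 bases after the start, 300 bases in RefSeq on GRCm38.p6, and 9 of the 20 shared genes matched an entry. The letters searched on both strands were CACGTG (E-box), TGACGTCA (cyclic AMP response element), and CCACACCC (CACCC box), and the glucocorticoid element and the serum response element were each searched in 1 spelling. CACGTG was in 1 of the 9, and is in capitals below. It was in 7.24% of all 27025 promoters and in 10.2% of 3620 promoters of genes that entered. The other motifs were in 0 of the 9, and in 1.88%, 3.57%, 0.0037% and 0.0777% of all promoters in the order given. The Ranbp3l window is chr15:8967699-8967998 on the plus strand and that of C330002G04Rik is chr19:23075856-23076155 on the minus strand.
Ranbp3l: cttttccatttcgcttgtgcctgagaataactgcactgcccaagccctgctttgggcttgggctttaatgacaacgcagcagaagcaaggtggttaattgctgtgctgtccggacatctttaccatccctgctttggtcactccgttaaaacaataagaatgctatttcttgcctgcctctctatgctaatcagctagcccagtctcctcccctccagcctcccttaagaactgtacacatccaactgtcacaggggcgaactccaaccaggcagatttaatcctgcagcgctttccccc
C330002G04Rik: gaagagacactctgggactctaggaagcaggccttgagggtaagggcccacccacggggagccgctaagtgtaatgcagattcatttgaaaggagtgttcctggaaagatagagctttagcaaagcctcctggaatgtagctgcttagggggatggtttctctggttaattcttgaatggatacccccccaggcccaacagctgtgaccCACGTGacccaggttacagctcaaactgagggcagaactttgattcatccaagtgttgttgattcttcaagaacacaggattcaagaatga

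Turning to single segments, the levels of the clusters in a class were averaged by their nuclei. Over 12 classes, the unnamed clusters each counted as 1, 1151 of 49000 pairs of a gene and a class were higher (2.35%) and 991 lower (2.02%). A gene was taken as one of a single class where it reached 2 per 10000 there, passed the limit on the class level and passed it in no cluster outside the class. By that rule 73 genes were higher and 75 lower. The proximal tubule-like, distal convoluted tubule-like and connecting tubule-like classes and cluster 7 had 0 such genes in either direction. The genes named in the next paragraphs that are not of a single class were chosen after their values were seen.

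In proximal tubule-like nuclei, 18 of 3620 genes were higher (0.497%) and 8 lower (0.221%). Beside Gclc and Aacs, the higher genes included Trdn, Fbxw2, Arl3, Nrg1 and Wdr17. Nrg1, an epidermal growth factor family ligand, was 1.46 in the control and 3.20 in Klf4 dEC. Wdr17, a WD-repeat gene, was 5.01 in the control and 10.8 in Klf4 dEC (Nos3 null 0.869, both labels 4.01), so Nos3 null was lowest. The lower genes beside Zbtb16, Adamts6, Bcl6 and C330002G04Rik were Tet2, Atp6v0a4, Gm16685 and Lamb1. Tet2 encodes an enzyme that oxidises methylcytosine and was 7.97 in the control and 3.09 in Klf4 dEC, a log2 ratio of -1.34 (-1.42 to -1.32). Atp6v0a4 encodes a kidney subunit of the proton pump and was 10.7 and 4.65, beside 6.14 in Nos3 null and 7.98 with both labels. Bcl6 was 3.34 and 1.13 (Nos3 null 3.20, both labels 5.30). Klf4 dEC was the lowest library for these 3 genes.

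In thick ascending limb-like nuclei, 48 of 3909 genes were higher (1.23%) and 19 lower (0.486%), and of 988 genes at 2 or more, 5 higher and 2 lower were of this class alone (0.506% and 0.202%). Lmo7, an adhesion-junction protein gene, was 8.57 in the control and 20.97 in Klf4 dEC (Nos3 null 8.21, both labels 10.5), a log2 ratio of 1.28 (1.23 to 1.35). Sgms2, a sphingomyelin synthase gene, was 2.71 and 5.79, and Igfbp7, a secreted binding protein of growth factors, 3.10 and 6.60. Rgs7, a regulator of G protein signalling, was lower with 2.25 and 0.797, and it entered in no cluster outside this class. Peli2, a ubiquitin ligase of Toll-like receptor signalling, was lower with 9.07 and 3.57. Outside the rule, Defb1, an antimicrobial peptide of the distal nephron, was 3.21 and 9.78, and Flvcr1, a haem and choline transporter, 0.759 and 2.83. Chd9, a chromatin remodeller, was lower with 23.5 and 10.4, and the libraries labelled as lacking Nos3 were low too (Nos3 null 6.64, both labels 9.44).

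The principal cell-like cluster, in which vasopressin sets water uptake, had 133 of 4136 genes higher (3.22%) and 84 lower (2.03%). Of 1097 genes at 2 or more, 17 higher and 10 lower were of this class alone (1.55% and 0.912%). The ratios here were among the greatest in any named tubule class. Slco4a1, an organic anion transporter gene, was 0.316 in the control and 4.62 in Klf4 dEC (Nos3 null 0.116, both labels 0.314), a log2 ratio of 3.504 (3.33 to 4.49 on counts). Akr1b3 encodes aldose reductase, which makes the osmolyte sorbitol, and was 0.339 and 3.64 (Nos3 null 0.0656, both labels 0.450). Timp3, an inhibitor of metalloproteases, was 3.16 in the control and 18.1 in Klf4 dEC, with 10.5 in Nos3 null, and Pax8, a transcription factor of renal epithelium, was 6.60 and 27.4 (Nos3 null 5.74, both labels 8.49). Klf4 dEC was the highest library for all 4 genes, and for Slco4a1, Akr1b3 and Pax8 the other 3 libraries lay far below it. Slco4a1, Akr1b3 and Pax8 were nevertheless higher with both labels than in Nos3 null. Nr4a1 and Per1 were also higher in both libraries with the Klf4 label than in their counterparts. Nr4a1 was 0.0689 and 0.884 in the first pair and 0.152 and 1.32 in the second. Per1, a clock gene that glucocorticoids also raise, was 0.170 and 1.10, then 0.683 and 1.39.

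Of 7 genes of the collecting duct water list that entered in principal cell-like nuclei, 3 were higher and 0 lower, and their median log2 ratio was 0.36, against -0.04 for all genes. The water channel Aqp2 was 3.21 in the control and 6.88 in Klf4 dEC (Nos3 null 4.68, both labels 11.9), the basolateral channel Aqp4 3.10 and 6.57, and the vasopressin receptor Avpr2 0.433 and 0.981. Aqp3 had a log2 ratio of 0.35. The 8 principal cell markers summed to 26.5 in the control and 30.8 in Klf4 dEC, with 4 of 8 above their control level. The lower genes included Klhl14 with 1.83 and 0.390, Nxn with 1.74 and 0.385 and Trp63 with 1.53 and 0.346. Mpped2, a metallophosphodiesterase gene, was 29.4 in the control and 9.71 in Klf4 dEC (Nos3 null 7.49, both labels 16.1), a log2 ratio of -1.59 (-1.71 to -1.49). Of the genes of this class alone, 4930523C07Rik, Nedd9 and Efhd1 were highest in ratio, with 1.64, 1.42 and 1.31. Kitl, the ligand of the Kit receptor, was lower with 3.45 and 1.33, Zfp462 with 2.38 and 0.940 and Pde10a with 2.50 and 1.08. The 9 thin limb markers summed to 1.44 in the control and 4.70 in Klf4 dEC in this cluster, and without Akr1b3 to 1.10 and 1.06. Proximal markers there summed to 17.6 and 17.9.

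The thin limb-like cluster 18 is small, with 140 nuclei in the control and 119 in Klf4 dEC, and 223 of 4421 genes were higher (5.04%) and 188 lower (4.25%). Of 1108 genes at 2 or more, 14 higher and 32 lower were of this class alone (1.26% and 2.89%). Akr1b3 was 1.16 in the control and 13.8 in Klf4 dEC (Nos3 null 0.180, both labels 1.13), a log2 ratio of 3.47 (3.09 to 4.08). Nupr1, a stress-response chromatin protein gene, was 0.557 and 3.35, Galm, a galactose enzyme gene, 0.621 and 2.35, and Apba1, an adaptor protein gene, 0.934 and 3.37. The 3 lowest of this class alone were receptors and a protease of hormone pathways. Htr4, a serotonin receptor gene, was 14.6 in the control and 1.08 in Klf4 dEC (Nos3 null 1.79, both labels 7.09). Corin, the protease that activates atrial natriuretic peptide, was 21.6 and 3.45 (Nos3 null 2.55, both labels 16.1). Tshr, the thyrotropin receptor gene, was 6.35 and 0.837 (Nos3 null 1.04, both labels 1.80). For Htr4 and Corin the control and the library with both labels were high and the libraries with either label alone were low, and their ratios in the second pair were 1.93 and 2.62. Corin and Htr4 are also among the 10 leading genes of the cluster. The 9 thin limb markers summed to 19.8 and 28.4, but without Akr1b3 to 18.7 and 14.6. Connecting tubule markers in the cluster summed to 3.94 and 11.3, and without Slc8a1, which was 2.29 and 9.15, to 1.65 and 2.19. Proximal markers there summed to 30.4 and 45.4, with 12 of 14 above their control level, and fibroblast and mural markers to 0.573 and 1.13, with 7 of 10 above it. Their part in the other ratios was not tested.

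The distal convoluted tubule-like and connecting tubule-like classes had few genes past the limit. In the former, 23 of 3874 genes were higher (0.594%) and 5 lower (0.129%), and in the latter 15 of 3792 were higher (0.396%) and 7 lower (0.185%). In distal convoluted tubule-like nuclei the higher genes included Pygb, glycogen phosphorylase of brain type, with 0.622 and 1.57, and Map2k6, a kinase of stress signalling, with 0.447 and 1.21. The lower genes there included Slc9a2, a sodium-proton exchanger gene, with 0.684 and 0.269. In connecting tubule-like nuclei Klf9, a Klf4 relative that responds to steroid hormones, was 1.04 in the control and 2.70 in Klf4 dEC, beside 1.23 in Nos3 null and 0.867 with both labels. It also passed the limit in thin limb-like nuclei, with 1.09 and 2.70. Nfia, a nuclear factor gene, was lower with 1.34 and 0.525, and its Nos3 null value of 4.85 was the highest.

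In intercalated cell-like nuclei, which move acid and base, 52 of 4113 genes were higher (1.26%) and 11 lower (0.267%), and of 1061 genes at 2 or more, 3 higher and 2 lower were of this class alone (0.283% and 0.189%). The 3 higher ones, Keg1, Slc22a28 and Slc34a1, had their highest class level in proximal tubule-like nuclei, and Slc34a1 is the phosphate transporter of that segment. Slc34a1 was 5.65 in the control and 11.6 in Klf4 dEC, and Keg1 1.49 and 5.23. The whole proximal list moved with them in cluster 14: 13 of 14 proximal markers were above their control level, their sum was 34.7 in the control and 68.0 in Klf4 dEC, and 0 of them was at 0. In cluster 16 the sums were 16.8 and 19.1. Their part in the result was not tested. The lower genes were Slc26a7, a chloride-bicarbonate exchanger gene, with 2.35 in the control and 0.744 in Klf4 dEC (Nos3 null 0.693, both labels 3.11), and Pdlim3, with 2.47 and 1.05 (Nos3 null 0.892, both labels 1.64). Both are among the 10 leading genes of cluster 16, and in both the libraries with either label alone were low.

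Cluster 13, fibroblast and mural cell-like, had 86 of 4532 genes higher (1.9%) and 98 lower (2.16%), and of 1093 genes at 2 or more, 13 higher and 7 lower were of this class alone (1.19% and 0.64%). The highest ratio belonged to Fosb, a member of the AP-1 transcription factor, with 0.372 in the control and 4.55 in Klf4 dEC (Nos3 null 0.255, both labels 0.0455). Atf3 was 0.0200 and 0.505, Nr4a3 0.194 and 1.08, and Klf4 itself 0.213 and 0.965, beside 0.0596 in Nos3 null and 0.0759 with both labels. Vcl, which encodes the adhesion protein vinculin, was 3.46 and 13.9, and Lmna, which encodes lamin A and C of the nuclear envelope, 0.596 and 2.35. Klf4 dEC was the single high library for these 6 genes. Of this class alone, Rasgef1b was 0.682 and 3.46, Arl13b, a small GTPase gene of cilia, 0.469 and 2.05, and Osmr, the oncostatin M receptor gene, 0.732 and 2.67. Lower genes of this class alone were Spon1 with 4.16 and 1.22, Rad51b with 2.39 and 0.897 and Adgrl3 with 2.42 and 0.912. Ltbp4, a matrix protein that binds latent TGF-beta, was lower with 1.03 and 0.111, and Dcn, the proteoglycan decorin, with 0.631 and 0.145. In this cluster 3 of 10 fibroblast and mural markers were above their control level, and they summed to 9.44 and 8.12, endothelial markers to 18.1 and 13.9 and proximal markers to 99.2 and 97.2.

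Podocyte-like nuclei had 55 of 3620 genes higher (1.52%) and 62 lower (1.71%), and of 866 genes at 2 or more, 1 higher and 4 lower were of this class alone (0.115% and 0.462%). The higher gene was Pros1, which encodes the anticoagulant protein S, with 1.49 in the control and 3.23 in Klf4 dEC, and with 1.70 and 3.43 in the second pair. Ghr, the growth hormone receptor gene, was lower with 22.3 and 9.60, and in the second pair with 30.0 and 10.2. Agps, an enzyme of ether lipid synthesis, was 3.86 and 1.73, then 4.49 and 2.11. Ghr, Agps and Lrrk2 had their highest class level in proximal tubule-like nuclei. The podocyte-like genes named here had the same direction in both pairs, with second-pair ratios of 0.97 for Pros1, -1.55 for Ghr, -1.05 for Agps and -0.54 for Lrrk2. The remaining lower gene of this class alone was counted but is not named.

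The unnamed clusters added few segment genes that can be placed. Cluster 7, which holds markers of several segments, had 23 of 3929 genes higher (0.585%) and 11 lower (0.28%), led by Trdn with 0.127 and 0.952. Cluster 12, led by Kap, Fth1 and Gpx3, had 18 higher and 16 lower genes of its own among 1076 (1.67% and 1.49%). Its extremes rest on few counts: Ldb2 had 32 effective counts in the control and 1 in Klf4 dEC, and Atp5g1, a subunit gene of ATP synthase, 6 and 27. In cluster 17, with 78 of 4193 genes higher (1.86%) and 66 lower (1.57%), 2 higher and 2 lower genes of 1021 were its own (0.196% each way). Of these Kl, which encodes Klotho, the co-receptor of the phosphate hormone FGF23, was 12.1 in the control and 5.25 in Klf4 dEC, a log2 ratio of -1.19 (-1.48 to -0.93). Connecting tubule markers in cluster 17 summed to 291 in the control and 161 in Klf4 dEC, with 4 of 7 above their control level, and their part in the Kl difference was not tested. In connecting tubule-like and distal convoluted tubule-like nuclei the ratios of Kl were -0.79 and -0.89, inside the limit.

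Over the single-class genes of all classes, the second pair gave the same sign for 40 of 73 higher genes and 30 of 75 lower genes. In the second pair between 47.0% and 54.1% of all genes of a class were above 0. It was past the limit in the same direction for 9 of the higher and 6 of the lower genes, and in the opposite direction for 12 and 13. Thus for the single-class genes the second pair gave the opposite sign about as often as the same one.

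Gene lists were read against the shares over all pairs, 2.35% higher and 2.02% lower. Among the pathway lists, the share of higher pairs was greatest for immediate early genes, which cells switch on within minutes of a stimulus. Of 44 pairs of a member and a class that entered, 13 were higher and 1 lower, and 37 were above 0. The 13 lay in the principal cell-like, fibroblast and mural cell-like, thin limb-like, thick limb-like and podocyte-like classes, and none lay in the proximal class, where the list's median was -0.05. Fosb was 0.146 and 0.978 in thin limb-like nuclei, Egr1 0.303 and 1.17 there and 0.332 and 0.917 in thick limb-like nuclei, Nr4a1 0.0689 and 0.884 in principal cell-like nuclei, and Jun 0.276 and 0.673 in podocyte-like nuclei. The list also holds Klf4 and Klf6. The KLF family as a whole had 7 of 65 pairs higher and 1 lower, and its median was above that of all genes in 12 of 12 classes. Klf5 and Klf6 were higher in principal cell-like nuclei, with 0.307 and 1.03, and 0.468 and 1.14, and Klf8 was lower there with 0.944 and 0.299.

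Glucocorticoid targets went both ways, with 5 of 69 pairs higher and 7 lower. The lower ones were Zbtb16 in 6 classes and Fkbp5, a chaperone that dampens the glucocorticoid receptor, in thick limb-like nuclei, with 7.36 in the control and 2.92 in Klf4 dEC, and Fkbp5 was below 0 in 12 of 12 classes, from -1.30 to -0.04. The higher ones were Per1 and Sgk1, the kinase that raises sodium uptake, in principal cell-like nuclei, Sgk1 in thin limb-like nuclei with 0.193 and 1.06, and Klf9. Sgk1 was 0.574 and 1.82 in principal cell-like nuclei. The collecting duct water list had 4 of 27 pairs higher and 1 lower, of which Aqp2, Aqp4 and Avpr2 are described above. Heat shock genes had 6 of 56 pairs higher and 0 lower, among them Hsph1 with 0.8002 and 1.97 in thin limb-like nuclei and Dnaja1 with 0.344 and 0.793 in principal cell-like nuclei.

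Metabolic and transport lists were read next. Antioxidant genes had 4 of 137 pairs higher and 0 lower, all 4 of them Gclc, and the list's median lay above that of all genes in 12 of 12 classes, from 0.01 to 0.46. The nuclear-encoded respiratory chain had 20 of 347 pairs higher, above the share over all pairs, and 2 lower. Cox7c gave 6 of the 20 and the shallow cluster 12 gave 7, Cox7c included. Atp5o was 0.390 and 1.24 in cluster 13 and Ndufb9 0.121 and 0.571 in podocyte-like nuclei. Mitochondrially encoded genes had 3 of 122 pairs higher and 0 lower. Fatty acid oxidation, the main fuel pathway of the proximal tubule, had 1 of 113 pairs higher and 0 lower, and gluconeogenesis and ammoniagenesis 0 and 1 of 86. Proximal apical transport had 10 of 126 pairs higher, also above that share, and 1 lower, and basolateral transport 4 of 111 and 1, and 0 of those pairs lay in the proximal class itself. Endocytic uptake had 0 of 91 pairs higher and 2 lower, both Cubn outside the proximal class.

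**Figure D4:**
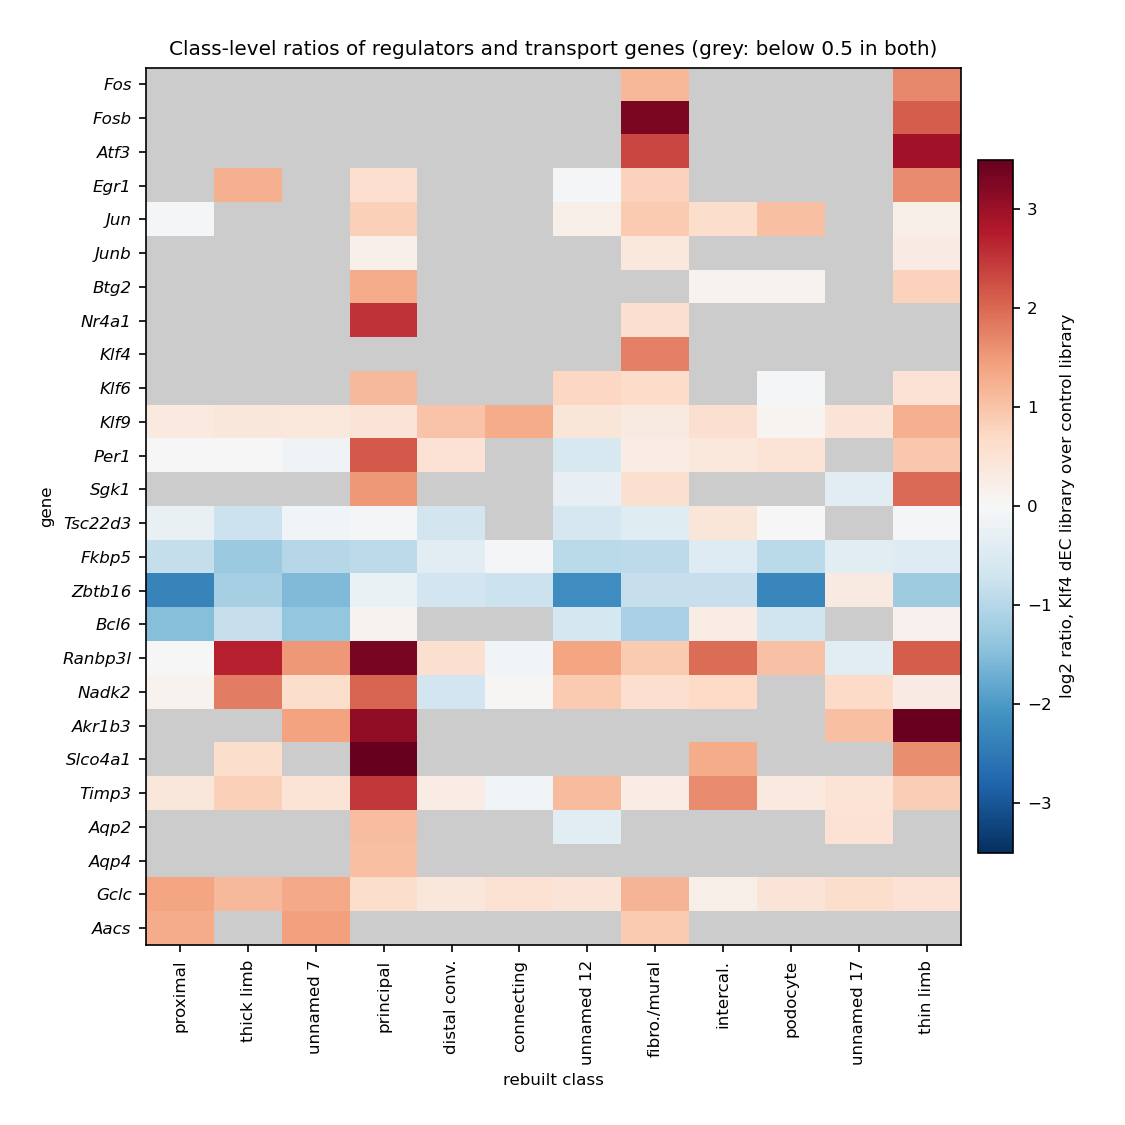
Log2 ratio of Klf4 dEC over control on the class level (colour scale) for genes described in the text (rows) in 12 rebuilt classes (columns). Grey marks values below 0.5 per 10000 in both libraries. Fosb is 3.30 in the fibroblast and mural cell-like class and Slco4a1 is 3.504 in the principal cell-like class, while Gclc is above 0 in all 12 classes.

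The remaining lists are given by their counts. The thick limb salt list had 1 of 107 pairs higher and 1 lower, the distal sodium and WNK list 5 of 115 and 2, distal calcium and magnesium 3 of 103 and 2, intercalated acid-base 0 of 50 and 3, and the slit diaphragm list 1 of 72 and 1. Slc12a3, the thiazide-sensitive cotransporter of the distal convoluted tubule, was 1.33 and 3.06 in cluster 13, where it is a marker of another type. The core clock had 1 of 75 pairs higher and 2 lower, and clock output 0 of 59 and 3, of which Dbp was 0.7003 and 0.175 in podocyte-like and 0.691 and 0.231 in thin limb-like nuclei. Nitric oxide and cGMP genes had 1 of 42 and 1, tubular injury 2 of 22 and 2, interferon and MHC class I 0 of 21 and 1, the unfolded protein response 1 of 71 and 1, hypoxia 1 of 65 and 2, and ferritin and iron 2 of 77 and 1. Renin-angiotensin genes had 1 of 32 and 0, cytosolic ribosomal proteins 3 of 52 and 6, of which the shallow cluster 12 gave all 3 and 5 of the 6, androgen-raised kidney genes 2 of 114 and 1, female-raised kidney genes 0 of 1 and 0, abundant nuclear RNAs 0 of 69 and 1, and sex chromosome genes 0 of 45 and 1.

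Among 2164 genes that entered in every class, the range of a gene's log2 ratio between classes had a median of 0.94. The widest ranges on the higher side were 3.71 for Ranbp3l, 3.53 for Hnrnpdl and 3.13 for Atl3, and on the lower side 2.67 for Zbtb16, 2.59 for Atp6v0a1 and 2.50 for Cdc14b. Those of Hnrnpdl, Atl3, Atp6v0a1 and Cdc14b had their extreme in the shallow cluster 12. Ranbp3l and Zbtb16 had theirs in well-filled classes, the principal cell-like and the proximal tubule-like class. Sums of markers of other types stayed inside the limit in most clusters. The summed proximal markers in the 14 other clusters had a median log2 ratio of 0.09, from -0.21 to 0.97, and endothelial markers in 19 clusters one of -0.09, from -0.59 to 0.84. Sums past the limit were those of thin limb markers in cluster 8, connecting tubule markers in cluster 18 and fibroblast and mural markers in cluster 12.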

How the data were processed

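The deposited table holds a normalized signal that the authors made: per the column names, 23 clusters in 4 libraries, each column summing to 10000, so that a value is the mean over nuclei of UMIs per 10000. The tools named per the submitters' processing notes are Cell Ranger and Seurat, with mm10 as the build and no versions. All 92 columns matched a library title, and 0 columns were left over. Numbers of nuclei and effective UMI totals (the UMIs that the precision of a mean corresponds to) are inferred from reciprocals of the 60 lowest values of a column, using the number that divided at least 70% of them, and were checked on simulated data. Some columns gave more distinct UMI totals than nuclei, as 163 for 141 in cluster 12 and 88 for 68 in cluster 19 of the control. Some totals are thus not those of a nucleus, and medians, effective counts and intervals are approximate. A level of 3 counts was 0.00616 to 0.287 per 10000 in the control and 0.00736 to 0.228 in Klf4 dEC, by cluster. It was 0.0123 to 0.273 in Nos3 null and 0.00734 to 0.341 with both labels. Intervals in brackets are 95% intervals, exact Poisson for levels and Clopper-Pearson for ratios without the pseudocount. They cover counting error only.

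The members and lists were chosen with earlier results of these data known. Classes needed a mean marker score of 0.75, a lead of 0.35 and 3 detected markers, limits set after the table was seen. Named were Klf4 and Nos3, the up to 12 genes a direction counted in most clusters, per class the 3 highest and 3 lowest single-class genes, list members past the limit, and the 3 genes a direction with the widest range. Gclc ranks 13 and, like other genes said to be so, was named after its value was seen. Some genes are counted but not reported here. Nos3 was at most 0.0621 in the control clusters described. The sources used here do not state doublet treatment or strand use. Positions are from GENCODE vM21 (GRCm38). Python 3.11.15, numpy 2.4.6, pandas 2.3.3, scipy 1.17.1 and matplotlib 3.10.9 were used.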

Additional observations from a re-analysis of the deposited data

Results flagged for a closer look

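9330175M20Rik had opposite signs in the 2 pairs of libraries. Its median log2 ratio over clusters was 1.62 in Klf4 dEC over control and -1.84 in Klf4 dEC Nos3 null over Nos3 null, the latter over 1 cluster. The difference was not tested.

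In clusters that the comparisons above leave out, some shared genes were past the limit in the same direction. The genes were picked from other clusters of the same libraries, and all clusters of a library share its preparation and free RNA. The counts below are therefore a description and no independent support. In the endothelial cluster 10, where 1.46% of all 4371 genes entered were higher and 1.92% lower, this held for 6 of the 8 higher genes that entered, among them 9330175M20Rik, Gm16599, Cox7c, Ranbp3l and Lrrc4, and for 4 of 5 lower genes, Zbtb16, Sgcz, Gm16867 and Loxl2. In the urothelium-like cluster 20, where 7.08% of all 4830 genes were higher and 7.02% lower, it held for 3 of 6 higher genes, Gm47283, Cox7c and Ranbp3l, and for 2 of 4 lower genes, Zbtb16 and Loxl2. In the macrophage-like cluster 21, where 13.4% of all 5387 genes were higher and 12.6% lower, it held for 1 of 10 higher genes, Gm15261, and for 2 of 3 lower genes, Zbtb16 and Sgcz, while 1 higher gene, Aacs, was past the limit the other way.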

How the results depend on the processing

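No paired analysis was possible because each genotype has 1 library and no result comes from a test. The main counts are 13 higher and 7 lower shared genes, 1699 and 1478 pairs of a gene and a cluster, and 73 and 75 single-class genes. With a pseudocount of 0.5 they were 2 and 1 shared genes, and 406 and 277 pairs. Without a filter on low values they were 35 shared higher genes, and 5071 and 5011 pairs. At 1 or more per 10000 they were 7 shared higher genes, and 772 and 598 pairs. In the 14 named tubule clusters they were 8 and 2 shared genes, 1060 and 809 pairs, and 48 single-class higher genes. With a limit of 1.5 they were 3 and 3 shared genes, 447 and 362 pairs, and 28 and 18 single-class genes. Asking for at least 4 clusters gave 51 and 18 shared genes, and asking for at least 10 gave 2 and 1. Without the 3 shallowest clusters (12, 18 and 19), an alternative chosen after seeing the data, there were 878 and 629 pairs and 32 single-class lower genes. The 38 other recomputed counts stayed within 1.5 times the main value, and none of the median log2 ratios recomputed for 19 shared genes changed sign under the 2 other pseudocounts or the rescaling. With a pseudocount of 0.5, 7 of these medians were no longer past the limit, and with 0.05 there were 3 more past it. Fewer clusters, a larger limit or pseudocount and a higher filter each leave fewer pairs that can pass. Rescaling by the median ratio shifted clusters by -0.07 to 0.03 and made 57.2% of the pairs past the limit higher ones, against 53.5%.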

Other observations

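Genes of secreted factors and their receptors that are in no list were also past the limit, and were chosen after their values were seen. In thin limb-like nuclei Angpt2, a ligand of the endothelial Tie2 receptor, was 7.27 in the control and 1.83 in Klf4 dEC (Nos3 null 1.19, both labels 4.28). The libraries with either label alone were low, as for Corin and Htr4. Plod2, a collagen-modifying enzyme gene, was 0.876 and 4.04 there. In principal cell-like nuclei Hbegf, a growth factor ligand, was 0.159 and 1.40, Plaur, the urokinase receptor gene, 0.220 and 1.20, and Gdf15, a stress hormone gene, 0.188 and 1.05.

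Slc6a6 and Nfat5, also genes of the osmolyte response, were looked up after the value of Akr1b3 was seen. In principal cell-like nuclei the log2 ratio was -0.03 for the taurine transporter gene Slc6a6 and -0.68 for Nfat5, the transcription factor of the response to high salt. Their thin limb-like values are not given here, and the osmolyte response was not read as a list.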
